A study of Arabidopsis thaliana with 24 samples.

Results

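Transcript levels of 9 abscisic acid (ABA) signalling genes of Arabidopsis thaliana, 8 clade A protein phosphatases 2C and the transcription factor ABI5, were followed through 8 groups of seedlings. The genes were picked by locus for their place in the pathway, with earlier results of these data known. They are ABI1 (AT4G26080), ABI2 (AT5G57050), HAB1 (AT1G72770), HAB2 (AT1G17550), AHG3 (AT3G11410), HAI1 (AT5G59220), HAI2 (AT1G07430), HAI3 (AT2G29380) and ABI5 (AT2G36270). All 9 were among the 32678 loci of the count table, and 8 of them had enough reads to be tested. HAI3 did not. Messenger RNA libraries, 3 for each group, came from seedlings of the brassinosteroid-deficient mutant cpd or of the receptor triple mutant bri1-701 brl1 brl3, aged 7 or 24 days, either untreated or given brassinolide (BL). The cpd mutant is defective in a cytochrome P450 enzyme of brassinosteroid synthesis and can still perceive the hormone, whereas the triple mutant is defective in the main receptor BRI1 and its homologues BRL1 and BRL3. No group was a wild type, so every group carried a brassinosteroid defect. The sources used here give neither the dose of BL, the length of the treatment nor the cpd allele.

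ABA binds receptors of the PYR/PYL family, and the receptors with their ligand block the clade A phosphatases. Free phosphatases keep the SnRK2 kinases dephosphorylated and inactive. Once released, the kinases phosphorylate basic leucine zipper factors such as ABI5, which halts the growth of newly germinated seedlings, and the ABFs. ABA raises the transcripts of most clade A phosphatases, which forms a negative feedback loop. Brassinosteroids and ABA act against each other in germination and early seedling growth. In this crosstalk the kinase BIN2, an inhibitor of brassinosteroid signalling, phosphorylates ABI5, and the brassinosteroid-activated factor BZR1 has been reported to bind the ABI5 promoter.

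Sequence before the transcription start was examined because ABA-responsive genes are often controlled through the ABRE core, ACGTG. The 3 members with the largest BL responses are shown, each as the 250 bases before its start, written 5′ to 3′ on the coding strand, with every ACGTG on either strand in capitals. All 3 lie on the minus strand. The windows and letters come from the RefSeq annotation of TAIR10.1, a later release of the build that the submitters' processing notes name. ABI5 lies at chr2:15207637-15207886, HAI2 at chr1:2282829-2283078 and HAI1 at chr5:23896940-23897189.
ABI5: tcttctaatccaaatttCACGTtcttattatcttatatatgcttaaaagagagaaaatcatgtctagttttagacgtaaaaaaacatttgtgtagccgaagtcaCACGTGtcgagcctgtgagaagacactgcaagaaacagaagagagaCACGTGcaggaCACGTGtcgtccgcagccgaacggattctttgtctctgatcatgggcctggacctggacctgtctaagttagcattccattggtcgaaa
HAI2: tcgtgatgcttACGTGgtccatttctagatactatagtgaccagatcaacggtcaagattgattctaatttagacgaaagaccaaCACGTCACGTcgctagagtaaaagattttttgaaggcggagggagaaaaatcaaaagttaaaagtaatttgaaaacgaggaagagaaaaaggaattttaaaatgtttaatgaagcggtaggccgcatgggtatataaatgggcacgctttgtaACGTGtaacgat
HAI1: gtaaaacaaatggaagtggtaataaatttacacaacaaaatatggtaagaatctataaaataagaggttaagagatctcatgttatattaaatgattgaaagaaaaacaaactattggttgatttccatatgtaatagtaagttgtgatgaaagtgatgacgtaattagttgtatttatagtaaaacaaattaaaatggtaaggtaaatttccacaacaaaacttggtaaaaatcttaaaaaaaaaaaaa
ABI5 held 7 matches to ACGTG counted over both strands, HAI2 held 4 and HAI1 held 0. The G-box CACGTG contains ACGTG on each strand, and ABI5 held 3 of them. ABI5 also held 1 match to CGTGTG, a form of the element bound by BZR1 in gene repression, and this match overlapped a G-box. Searched on both strands, ACGTG occurred in 6 of the 9 members (HAB1, HAB2, AHG3, HAI2, HAI3 and ABI5) and in 23.1% of 26711 promoters of the same length. The G-box occurred in AHG3 and ABI5, and in 6.58% of all promoters. CGTGTG occurred in ABI5 among the members, and in 5.37% of all promoters. CGTGCG occurred in 0 members and in 1.58% of all promoters, and the E-box CANNTG, which includes the G-box, in 7 members and in 55.3% of all promoters. These matches describe letters in a window and not binding sites. ABI5 had the most ACGTG matches of the 9 members in this window, followed by AHG3 with 5 matches and 1 G-box. Each G-box is matched on both strands, so this order is not one of separate sites. Any relation of the matches to the responses to BL was not tested.

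Total counts per library ranged from 10180880 to 12531699 at 7 days and from 17243503 to 20563151 at 24 days. Counts of replicate libraries differed by 1.13 to 1.51 times the counting variance at 7 days (chi-square per degree of freedom) and by 6.38 to 59.2 times at 24 days. The fitted coefficient of variation between replicates came to 2.01% in the younger seedlings and 15% in the older ones. Levels are CPM (a library's counts scaled to a common total) after TMM normalisation over all 24 libraries, given as mean ± SD of 3 libraries. Fold changes are on the log2 scale with a standard error (SE). They come from edgeR's quasi-likelihood test, with p-values adjusted over every gene tested by Benjamini and Hochberg's method, and a gene is said to rise or fall where the adjusted p is under 0.05. Leaf markers summed to 4108 to 6318 CPM in every library, and markers of seeds and embryos to 0.28 to 3.27 CPM.

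ABI1 was by far the most abundant phosphatase transcript when levels were set per kilobase of exon, the scale on which genes can be compared. It gave 127 CPM per kb in untreated cpd seedlings at 7 days, ahead of HAB1 with 39.7, and ABI5 gave 7.37. ABI1 made up 56.3% of the summed level of the 8 phosphatases in that group and 69.6% to 71.3% in the 4 groups at 24 days. The sum stood at 226 ± 5.49 CPM per kb in untreated cpd at 7 days and at 149 ± 0.103 with BL. In the triple mutant of the same age it stood at 209.9 ± 2.81 without BL and at 189 ± 0.703 with it. At 24 days the sum ranged from 116 to 136.5 over the 4 groups. With BL in young cpd seedlings the make-up of the phosphatase pool also shifted on this scale. The share of HAI1 went from 9.44% to 2.78%, and that of HAB2 from 8.42% to 12.8%.

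**Figure D1:**
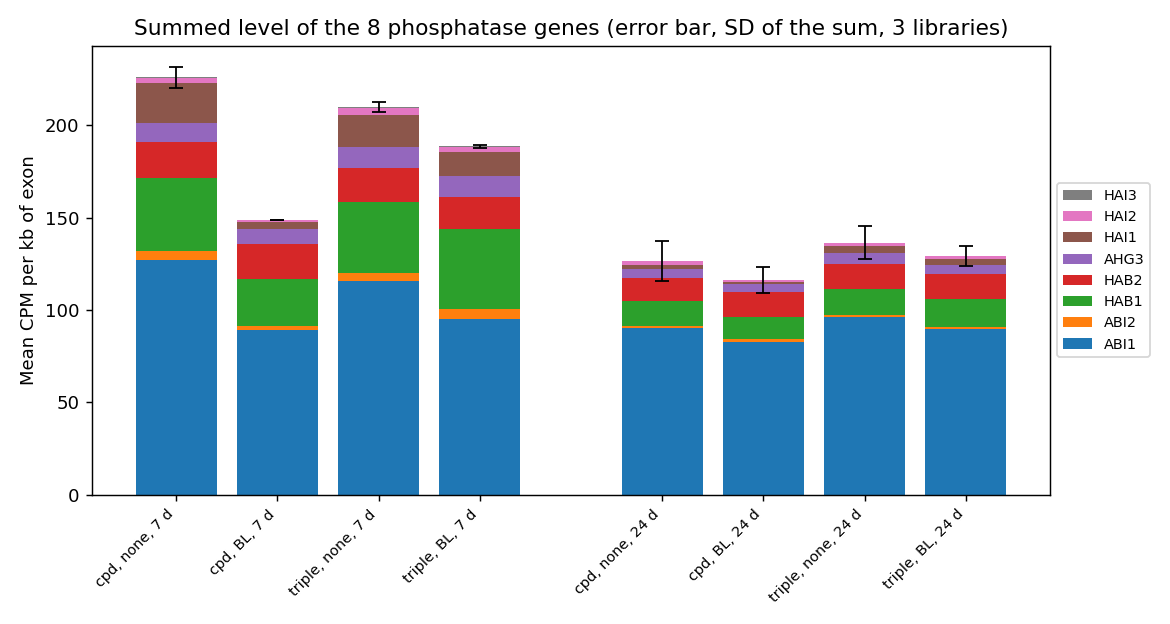
Stacked bars give the mean level of each of the 8 clade A phosphatases in CPM per kb of exon for the 8 groups, and the error bar is the SD of the sum over 3 libraries. ABI1 is the largest segment in every group, and the sum is lower with BL in 7-day cpd seedlings (149) than without (226).

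Which of these genes respond to BL in seedlings that can perceive it was asked first in 7-day cpd. ABI5 and 6 of the 7 tested phosphatases fell, and none rose. HAI1 and ABI5 fell more than 5-fold, HAI2 more than 3-fold, and ABI1, ABI2, HAB1 and AHG3 by 1.37-fold to 1.9-fold. HAB2 did not pass the test. Over all 18378 genes tested, 57.3% passed, 27.7% higher and 29.5% lower, and the 7 of 8 members that fell are to be read against that 29.5%. The median log2 change of the members was −0.79, and that of all genes was −0.0016. Leaf markers moved the other way. Their sum was 4433 to 4536 CPM in the untreated 7-day cpd libraries and 6231 to 6318 CPM with BL, and all 5 rose, with a median log2 change of 0.43, while none was at 0. The part of this shift in the falls of the members was not tested. In these bulk samples, fewer cells of a type and less RNA per cell cannot be told apart.

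ABI5 had levels of 15.5, 14.9 and 16.3 CPM in the untreated 7-day cpd libraries and of 3.17, 2.79 and 2.87 CPM with BL. The treated libraries were all far below the untreated ones, and the groups did not overlap. The log2 change was −2.40 ± 0.13 (SE), a 5.28-fold fall (edgeR adjusted p = 1.26e-26). Markers of seeds and embryos, where ABI5 is strongly expressed, summed to at most 3.27 CPM in any library. SESA1 was the only one of the 7 with enough reads to be tested, and it gave −0.38 without passing.

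HAI1, HAI2 and HAI3 form the highly ABA-induced branch of the family. HAI1 had 44.25, 44.3 and 44.8 CPM in untreated 7-day cpd and 8.51, 9.38 and 8.01 CPM with BL. All treated libraries were well below all untreated ones, and HAI1 fell by 2.36 ± 0.08 on the log2 scale, 5.14-fold (edgeR adjusted p = 6.26e-39). HAI1 is also known as SAG113, a regulator of leaf senescence, so markers of senescing leaves are given beside it. Their sum was 426 to 433 CPM in the untreated cpd libraries and 293 to 299 CPM with BL, and SAG13, ORE1, NAP and NYE1, all 4 that could be tested, fell. SAG12, the defining marker of late senescence, had 0 counts in every 7-day library. The part of these markers in the fall of HAI1 was not tested.

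HAI2 was a rare transcript, with 5.51, 6.01 and 5.29 CPM in untreated 7-day cpd and 1.62, 1.47 and 2.11 CPM with BL. The groups were again apart, and HAI2 fell 3.24-fold (log2 −1.69 ± 0.20, edgeR adjusted p = 1.01e-11). HAI3 had 1 to 8 counts in any library, and 4 to 16 counts over the 3 libraries of a group. A floor of 3 counts corresponds to 0.232 to 0.305 CPM in a 7-day library, so differences of HAI3 between treatments were not detectable at this depth. AHG3, also called PP2CA, a phosphatase that restrains ABA responses in seeds and guard cells, had 19.3, 18.4 and 20.2 CPM without BL and 12.9, 14.3 and 15.1 CPM with it. Its treated libraries all lay below the untreated ones, and the fall was 1.37-fold (log2 −0.46 ± 0.09, edgeR adjusted p = 8.26e-06).

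ABI1 and ABI2 are the paired phosphatases in which dominant mutations first revealed ABA insensitivity. ABI1 had 272, 287 and 268 CPM in untreated 7-day cpd and 196, 189 and 194 CPM with BL. The fall was 1.43-fold with no overlap of groups (log2 −0.52 ± 0.03, edgeR adjusted p = 2.84e-25). The annotation places 22 bases of ABI1 over MEK1 on the opposite strand, and no other member overlaps a gene. ABI2 had 8.60, 13.4 and 10.97 CPM without BL and 6.27, 5.89 and 4.97 CPM with it. The untreated ABI2 libraries were scattered, but all stayed above the treated ones, and ABI2 fell 1.9-fold (log2 −0.92 ± 0.13, edgeR adjusted p = 6.18e-09).

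HAB1 and HAB2 are a further related pair, and they did not respond alike in the test. HAB1, which also binds the chromatin remodelling subunit SWI3B, had 112, 112.5 and 108.5 CPM in untreated 7-day cpd and 69.3, 72.8 and 70.3 CPM with BL. It fell 1.57-fold, with the groups apart (log2 −0.65 ± 0.04, edgeR adjusted p = 2.81e-24). HAB2 had 52.6, 49.3 and 48.9 CPM without BL and 49.5, 52.5 and 48.9 CPM with it. The 2 sets of HAB2 libraries overlapped fully, and the interval of its log2 change ran from −0.11 to 0.10 (adjusted p = 0.953).

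**Figure D2:**
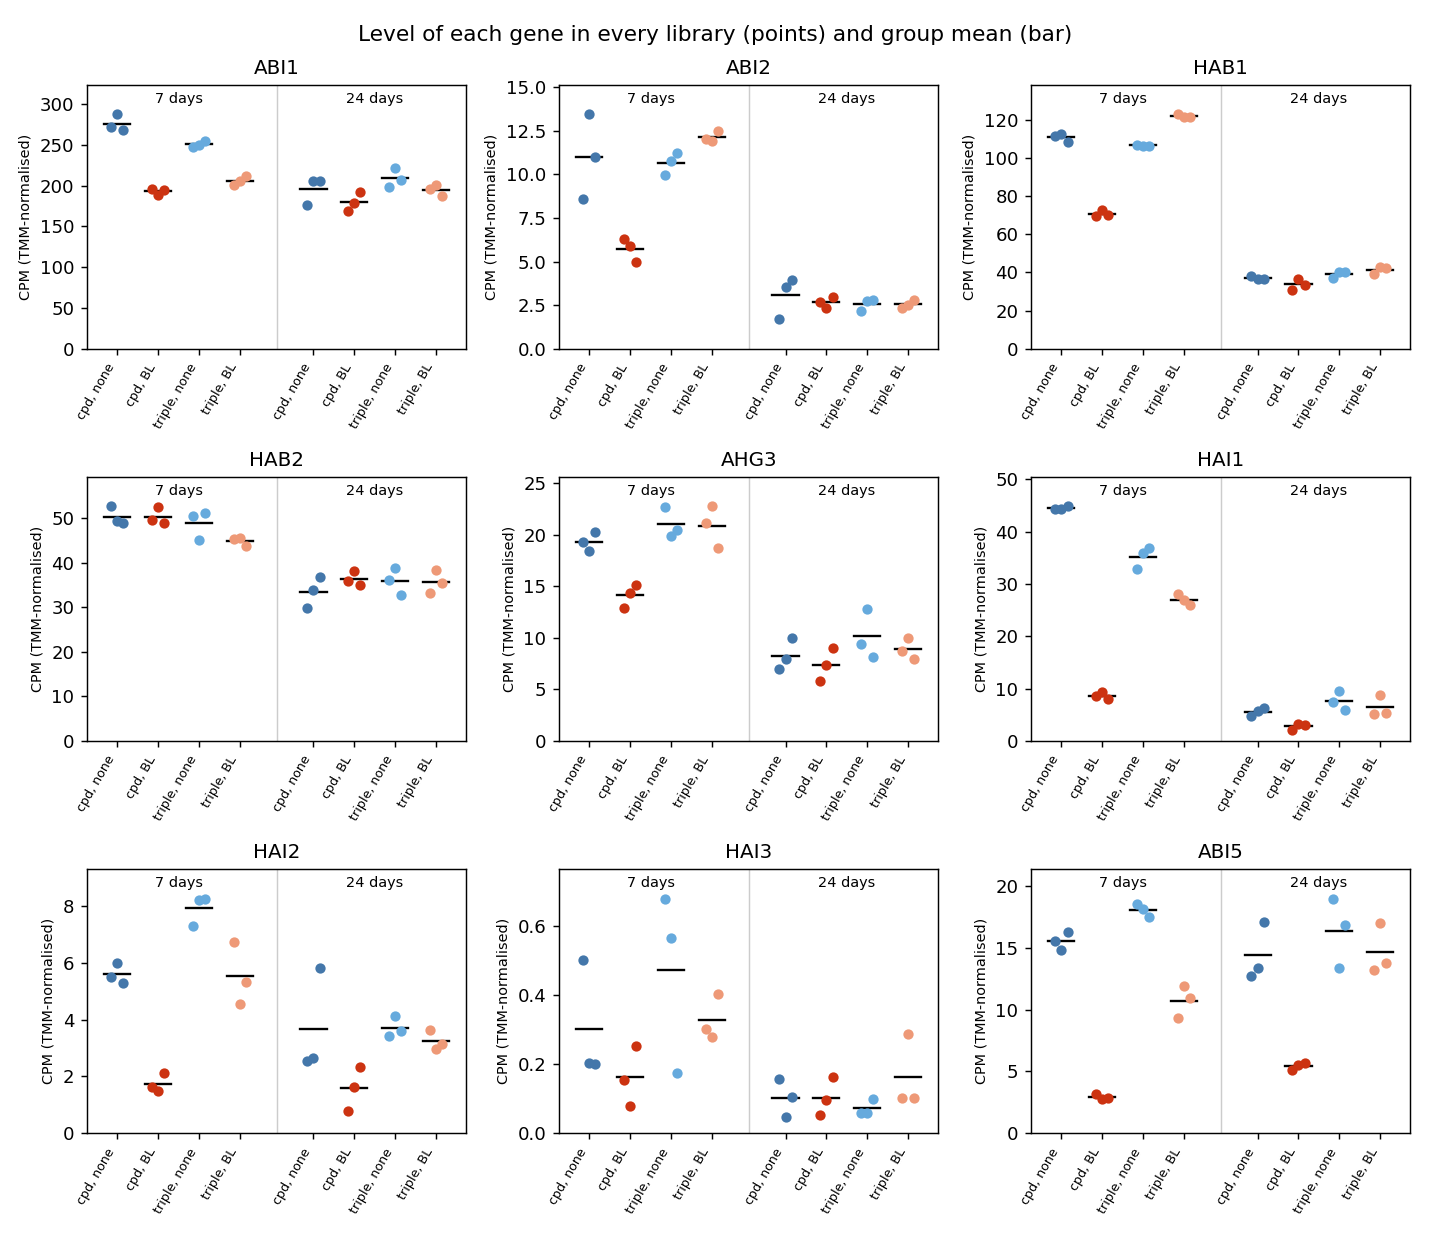
Each panel gives 1 gene, with the normalised CPM of every library as points and the mean of 3 libraries as a bar for the 8 groups (each panel has its own scale). ABI5, HAI1 and HAI2 show the widest gap between untreated and BL-treated 7-day cpd seedlings (ABI5 means 15.6 and 2.94 CPM), and the HAB2 libraries of those groups overlap.

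The response to BL was followed next in the triple mutant, which is defective in the BRI1-type receptors. The 2 mutants differ in hormone synthesis as well as in receptors. Their parts in a difference between the responses cannot be told apart here. In 7-day triple mutant seedlings ABI5, HAI1, HAI2 and ABI1 still fell, but by at most 1.67-fold, HAB1 rose, and ABI2, HAB2 and AHG3 did not pass. In this comparison 22.4% of all genes passed, 11.4% upwards and 11% downwards, against 4 of 8 members lower and 1 higher. The members' median log2 change was −0.20 against −3e-04 for all genes. All 5 leaf markers rose here too, with a median log2 change of 0.30 and sums of 4669 to 4973 CPM without BL and 5606 to 5867 CPM with it. Their part in the responses of the members was not tested.

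In the triple mutant at 7 days ABI5 had 18.6, 18.1 and 17.5 CPM without BL and 9.33, 11.9 and 10.96 CPM with it. The treated libraries were all lower, by 1.67-fold on average (log2 −0.74 ± 0.10, edgeR adjusted p = 4.38e-09). HAI1 had 32.8, 35.9 and 36.8 CPM without BL and 28.1, 26.8 and 26.0 CPM with it. This was a 1.3-fold fall with no overlap (log2 −0.38 ± 0.07, edgeR adjusted p = 7.61e-06). For HAI2 the levels were 7.30, 8.21 and 8.27 CPM without BL and 6.73, 4.57 and 5.33 CPM with it, a log2 change of −0.52 ± 0.14 (edgeR adjusted p = 0.00465). That call was lost without BL-treated triple mutant replicate 2 (adjusted p = 0.0741) and in DESeq2's test (adjusted p = 0.0529).

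HAB1 moved the opposite way in the 2 genotypes at 7 days. In the triple mutant it had 107, 106.5 and 106.5 CPM without BL and 123, 122 and 121.5 CPM with it. The treated libraries were all above the untreated ones, and HAB1 rose 1.15-fold (log2 0.20 ± 0.04, edgeR adjusted p = 1.77e-05), a call lost with the wider spread of the 24-day fit (adjusted p = 1). HAI1, HAI2 and ABI1 lost their calls with that spread as well (0.667, 0.765 and 0.993). That alternative used edgeR's likelihood ratio test, so the test changed together with the spread. ABI1 went from 251 ± 3.53 to 206 ± 5.76 CPM, a 1.21-fold fall (log2 −0.28 ± 0.03, edgeR adjusted p = 1.2e-11). ABI2 stood at 10.6 ± 0.651 without BL and at 12.2 ± 0.282 CPM with it, and AHG3 at 21.01 ± 1.46 and 20.9 ± 2.04 CPM. Neither difference passed, and their log2 intervals ran from −0.03 to 0.42 for ABI2 and from −0.17 to 0.16 for AHG3.

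The difference between the genotypes in their response to BL was tested directly at 7 days. It passed for ABI5 and for 6 of the 7 tested phosphatases, in each case with a higher log2 change in the triple mutant than in cpd. Among all genes, 41% passed this test, 22.3% in that direction and 18.7% in the other. On the log2 scale the difference was 1.99 ± 0.11 for HAI1 (edgeR adjusted p = 2.17e-26), 1.66 ± 0.17 for ABI5 (adjusted p = 3.81e-13) and 1.18 ± 0.25 for HAI2 (adjusted p = 6.17e-05). It was 1.12 ± 0.17 for ABI2, 0.85 ± 0.05 for HAB1, 0.45 ± 0.12 for AHG3 and 0.24 ± 0.04 for ABI1. With the spread of the 24-day fit AHG3 (adjusted p = 0.395) and ABI1 (0.759) no longer passed. HAB2 gave −0.12 and did not pass (adjusted p = 0.226).

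**Figure D3:**
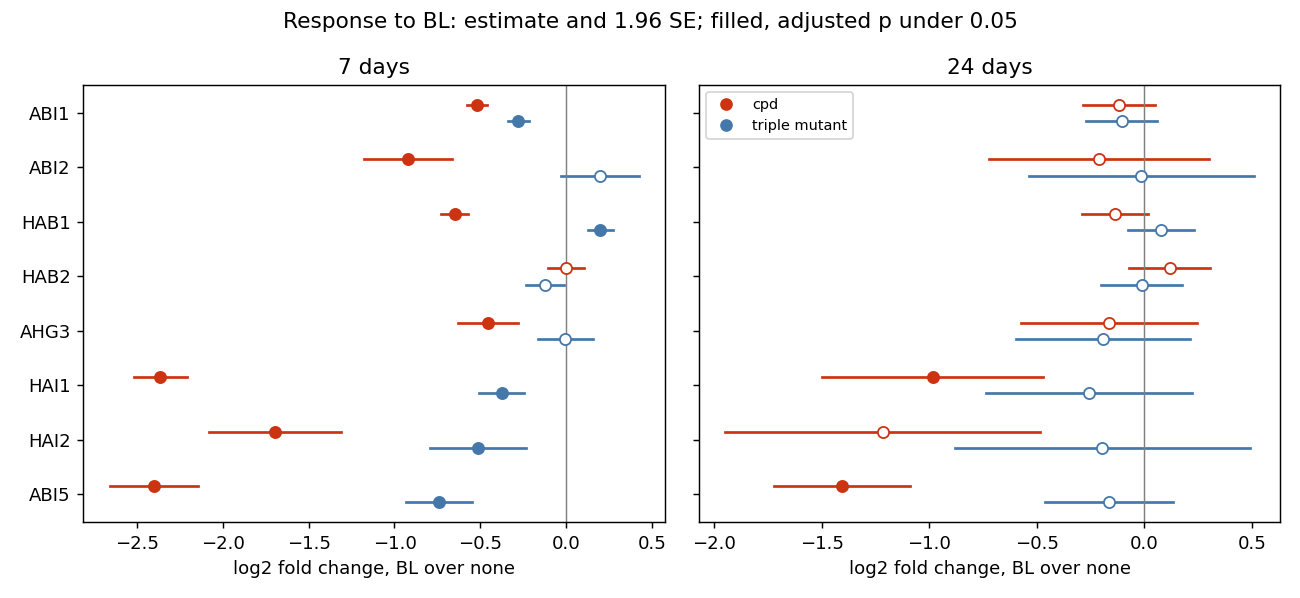
Points give the log2 fold change of BL over no BL and lines its 95% interval for 8 genes in cpd (red) and the triple mutant (blue), at 7 days on the left and 24 days on the right (the panels have different x ranges), with filled points at an adjusted p under 0.05. At 7 days the cpd points of ABI5 (−2.40) and HAI1 (−2.36) lie farthest from 0, and at 24 days only those of ABI5 and HAI1 in cpd are filled.

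Without BL, 3 members differed between the mutants at 7 days, by at most 1.42-fold, and with BL all 8 tested members did, 7 of them being higher in the triple mutant. In untreated seedlings 27.9% of all genes passed, 12.9% higher and 15% lower in the triple mutant, and of the members HAI2 was 1.42-fold higher in the triple mutant, HAI1 1.26-fold lower and ABI1 1.1-fold lower. The edgeR adjusted p-values were 0.00406 for HAI2, 4.01e-06 for HAI1 and 0.00014 for ABI1, and DESeq2 gave 0.0506 for HAI2. ABI5 gave a log2 difference of 0.22 ± 0.09 and an adjusted p of 0.0579, with all triple mutant libraries above all cpd libraries.

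Among BL-treated seedlings at 7 days 53.4% of all genes passed, 27.5% higher and 25.9% lower in the triple mutant, against 7 members higher and 1 lower. ABI5 was 3.67-fold higher (log2 1.87 ± 0.14, edgeR adjusted p = 5.48e-19), HAI2 3.2-fold and HAI1 3.14-fold. ABI2 was 2.13-fold higher, HAB1 1.73-fold, AHG3 1.49-fold and ABI1 1.07-fold. HAB2 was the 1 member lower, at a log2 difference of −0.16 (adjusted p = 0.0112). The ABI1 call was lost without BL-treated cpd replicate 2 (adjusted p = 0.0536), and the HAB2 call without that library (0.0526) or BL-treated triple mutant replicate 3 (0.0515). The comparisons at 1 age share libraries with each other, so these folds and the responses to BL are not independent.

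At 24 days fewer members passed in BL-treated cpd. The coefficient of variation between replicates was 15% at this age against 2.01% at 7 days. Counts of calls at the 2 ages therefore differ in what they could detect. ABI5 and HAI1 fell, and HAI2 was lower in every treated library without passing. With replicate number as a block HAI2 passed as well. The other 5 tested phosphatases did not pass. Of all 19731 genes tested, 9.72% passed, 4.54% higher and 5.18% lower, and 15.5% passed when replicate number was a block. The members' median log2 change was −0.19, against −0.0025 for all genes.

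ABI5 had 12.7, 13.4 and 17.1 CPM in untreated 24-day cpd and 5.08, 5.49 and 5.71 CPM with BL. The treated libraries were close together and all far below the untreated ones, a 2.65-fold fall (log2 −1.40 ± 0.16, edgeR adjusted p = 0.000295). HAI1 had 4.69, 5.64 and 6.35 CPM without BL and 2.09, 3.29 and 3.02 CPM with it. The groups did not overlap, and the fall was 1.98-fold (log2 −0.98 ± 0.26, edgeR adjusted p = 0.0367), but the call was lost on leaving out any 1 of these 6 libraries (adjusted p from 0.0554 to 0.143). The senescing leaf markers summed to 309 to 407 CPM in these untreated libraries and to 249.5 to 254.5 CPM with BL, and ORE1 and NYE1, 2 of the 4 tested, fell. Their part in the fall of HAI1 was not tested.

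HAI2 had 2.56, 2.65 and 5.83 CPM in untreated 24-day cpd and 0.785, 1.62 and 2.32 CPM with BL. The groups were apart by a small margin, and the log2 change of −1.22 ± 0.37 gave an adjusted p of 0.0636. Blocked on replicate number it passed (log2 −1.20, edgeR adjusted p = 0.0327), and also in DESeq2 (0.0169) and without BL-treated replicate 3 (0.0442). For ABI1, ABI2, HAB1, HAB2 and AHG3 the treated and untreated libraries overlapped. Their log2 changes lay between −0.21 and 0.12, with the widest interval for ABI2, from −0.72 to 0.30.

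In the 24-day triple mutant 0 members and 0% of all genes passed, with edgeR or with DESeq2, and at an unadjusted p under 0.05 edgeR gave 773 genes (3.92%) and 0 members. ABI5 had 19.0, 13.3 and 16.9 CPM without BL and 13.2, 17.0 and 13.8 CPM with it. The 2 groups overlapped, and the log2 interval ran from −0.46 to 0.13. The difference between the genotypes in their response at this age passed for ABI5 alone among the members, against 2.75% of all genes, 1.59% higher and 1.16% lower (6.11% with the replicate block). It was 1.24 ± 0.22 on the log2 scale (edgeR adjusted p = 0.0117). With replicate 3 left out of every group it was 1.20 with an adjusted p of 0.0835. HAI1 and HAI2 gave 0.73 ± 0.36 and 1.02 ± 0.51, with adjusted p-values of 0.34 and 0.347.

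Between the mutants at 24 days, untreated seedlings gave 0 members past the test in edgeR, also at an unadjusted p under 0.05, and 1.04% of all genes, 0.791% higher and 0.253% lower (7.21% with the replicate block). With BL, ABI5, HAI1 and HAB1 were higher in the triple mutant, against 11.1% of all genes in either direction, 5.6% higher and 5.48% lower (18.5% in either direction with the block). ABI5 was 2.72-fold higher (log2 1.44 ± 0.16, edgeR adjusted p = 0.000212) and HAI1 2.29-fold higher (log2 1.20 ± 0.26, edgeR adjusted p = 0.0132). HAB1 had 31.0, 36.8 and 33.4 CPM in BL-treated cpd and 39.1, 42.8 and 42.5 CPM in the BL-treated triple mutant, a 1.24-fold difference (log2 0.30 ± 0.08, edgeR adjusted p = 0.0285).
The HAI1 call was lost without BL-treated cpd replicate 1 (adjusted p = 0.0663) or BL-treated triple mutant replicate 2 (0.0509). The HAB1 call was lost without BL-treated cpd replicate 1 (0.124) or 3 (0.069) and without BL-treated triple mutant replicate 2 (0.0838) or 3 (0.0862). HAI2, at an adjusted p of 0.0978, passed with the replicate block (log2 1.10, 0.0436).

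Most of the phosphatases were lower at 24 than at 7 days in untreated seedlings, while ABI5 did not pass the test. In cpd, 6 members fell where 69.9% of all 19935 genes passed, 34.9% lower and 34.9% higher. In the triple mutant, 7 fell where 69.4% of genes passed, 34.9% higher and 34.5% lower. HAI1 fell most, by 7.98-fold in cpd (log2 −2.996 ± 0.17, edgeR adjusted p = 2.89e-12) and by 4.61-fold in the triple mutant (log2 −2.21 ± 0.17, edgeR adjusted p = 2.56e-10). ABI2 fell 3.56-fold and 4.12-fold, HAB1 2.99-fold and 2.72-fold, and AHG3 2.33-fold and 2.08-fold. HAB2 and ABI1 fell by at most 1.5-fold in either mutant.

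Tissue markers changed with age in the same libraries. Their counts are to be read against all genes, of which 34.9% rose and 34.9% fell in cpd. In the triple mutant 34.9% rose and 34.5% fell. Root markers rose, 4 of the 5 tested in cpd and 5 of 5 in the triple mutant (median log2 change 1.29 and 0.93). The 12 root markers summed to 39.8 to 42.6 CPM in untreated cpd at 7 days and to 65.01 to 83.6 CPM at 24 days, and to 39.2 to 43.7 and 55.7 to 87.3 CPM in the untreated triple mutant. Guard cell markers rose, 5 of 5 in cpd and 4 of 5 in the triple mutant (median 0.82 and 0.81). Their sums were 33.5 to 41.5 CPM in the untreated libraries at 7 days and 70.8 to 80.3 CPM at 24 days. Of the 5 leaf markers 3 fell in each mutant, while 2 rose in cpd and 1 in the triple mutant (median −0.96 and −1.06). The leaf marker sum in untreated cpd went the other way, from 4433 to 4536 CPM at 7 days and 4802 to 5240 CPM at 24 days. In the untreated triple mutant that sum was 4669 to 4973 CPM at 7 days and 4108 to 5154 CPM at 24 days. Senescing leaf markers, given for HAI1, fell in 2 of 4 cases in cpd and 4 of 4 in the triple mutant (median −0.25 and −0.82), and their sums in the untreated triple mutant were 457 to 472 CPM at 7 days and 291 to 337 CPM at 24 days. The part of these markers in the falls of the phosphatases was not tested.

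HAI2 passed in the triple mutant, with a 2.13-fold fall (adjusted p = 0.00116), and not in cpd (adjusted p = 0.0553). In cpd it passed with the replicate block (log2 −0.65, edgeR adjusted p = 0.0263) and without untreated 24-day replicate 3 (log2 −1.10, adjusted p = 0.00059). ABI5 gave −0.11 ± 0.13 in cpd and −0.14 ± 0.13 in the triple mutant, with adjusted p-values of 0.453 and 0.34 and log2 intervals from −0.36 to 0.14 and from −0.39 to 0.11. The 2 ages carry different library naming schemes, so age and batch cannot be told apart, and these fits use 1 estimate of spread for ages whose spreads differ.

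The response to BL in cpd was smaller at 24 than at 7 days for 4 members, in a test that 9.68% of all genes passed, 5.51% upwards and 4.16% downwards (14.8% with the replicate block). The log2 difference was 1.38 ± 0.26 for HAI1 (edgeR adjusted p = 0.00207), 0.99 ± 0.21 for ABI5 (0.00488), 0.51 ± 0.08 for HAB1 (0.000375) and 0.40 ± 0.09 for ABI1 (0.00605). ABI2 gave 0.72 ± 0.30 and an adjusted p of 0.134, which became 0.0413 without untreated 24-day cpd replicate 3. HAI2 gave 0.47 ± 0.44 and AHG3 0.29 ± 0.23, and neither passed.

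Ordered over all 8 groups, ABI5 and the phosphatases had different profiles. ABI5 was highest in the untreated triple mutant at 7 days, at 18.1 ± 0.558 CPM, and the 5 highest groups each overlapped the next. These were the 4 untreated groups and the BL-treated triple mutant at 24 days. Below them the BL-treated triple mutant at 7 days (10.7 ± 1.31), BL-treated cpd at 24 days (5.42 ± 0.32) and BL-treated cpd at 7 days (2.94 ± 0.203) were each separate from the next.

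HAI1, HAB1, ABI2, AHG3 and HAB2 had all 4 of their highest groups at 7 days. The share of all genes with that order was not counted. Of all genes, 34.9% in untreated cpd and 34.5% in the untreated triple mutant were lower at 24 days. Age and batch cannot be told apart here either. HAI1 stood at 44.4 ± 0.306, 35.2 ± 2.1 and 27.0 ± 1.04 CPM in untreated cpd, the untreated triple mutant and the BL-treated triple mutant, 3 groups apart from each other. BL-treated cpd at 7 days, at 8.63 ± 0.692 CPM, overlapped the untreated triple mutant at 24 days. HAB1 separated all 4 groups of 7 days, from 122 ± 0.787 CPM in the BL-treated triple mutant to 70.8 ± 1.76 in BL-treated cpd, whereas its 4 groups at 24 days each overlapped the next. ABI2 and AHG3 had 3 overlapping high groups at 7 days, with BL-treated cpd alone below them at 5.71 ± 0.666 and 14.1 ± 1.1 CPM.

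The library levels of ABI1 ranged only from 169 to 287 CPM, with the 2 untreated groups of 7 days on top and the other 6 groups overlapping their neighbours. HAB2 ranged from 33.5 ± 3.44 to 50.3 ± 1.9 CPM, and within each age every group overlapped the next. HAI2 had its 2 lowest groups in BL-treated cpd at 7 and 24 days, 1.74 ± 0.331 and 1.57 ± 0.766 CPM, which overlapped each other and no other group. All 8 groups of HAI3 overlapped their neighbours.

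Other ABA signalling genes were counted from lists chosen by role, against 27.7% of all genes higher and 29.5% lower with BL in 7-day cpd. In BL-treated 7-day cpd the receptor transcripts moved both ways, with 3 of the 8 tested higher and 3 lower. PYL5 fell from 202 to 111 CPM (log2 −0.87 ± 0.03, edgeR adjusted p = 4.84e-35) and PYL7 by 0.44 on the log2 scale, while PYL4 rose by 0.38. Of the 3 SnRK2 kinases OST1, which acts in stomatal closure, fell (log2 −0.33 ± 0.08), and the other two did not pass. Of 6 tested transcription factors of the pathway 3 rose and 2 fell, by at most 0.28 on the log2 scale. ABF4 fell by 0.28 on the log2 scale, ABF3 rose by 0.17 and ABF2 rose by 0.23. ABI3 and ABI4, which act with ABI5 in seeds and germinating seedlings, had 0 counts in every library. AHG1, the remaining clade A phosphatase, had at most 12 counts over the 3 libraries of a group and was not tested.

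Regulators of ABI5 and ABA targets were counted in the same comparison, in which 57.3% of all genes passed and 29.5% fell. Of the AFP family, named for AFP1, which binds ABI5 and promotes its breakdown, AFP3 fell from 93.3 to 42.9 CPM (log2 −1.12 ± 0.05, edgeR adjusted p = 3.7e-33), AFP4 by 0.74 and AFP1 by 0.88 on the log2 scale. In all, 4 of the 6 tested ABI5 regulators fell and 1 rose. Of 11 tested ABA targets 7 fell and 2 rose. RD26, a NAC transcription factor, fell from 195 to 78.8 CPM (log2 −1.31 ± 0.04, edgeR adjusted p = 1.56e-44), and the dehydrin LTI30 fell from 138 to 51.5 CPM. RD22, a dehydration-responsive gene, rose from 85.3 to 171 CPM (log2 1.00 ± 0.04, edgeR adjusted p = 4.81e-35).

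Genes of ABA synthesis and breakdown were counted in the same comparison, BL in 7-day cpd, where 29.5% of all genes fell and 27.7% rose. Of 5 tested synthesis genes 3 fell and none rose: ABA3 by 0.45, AAO3 by 0.24 and NCED3, the rate-limiting dioxygenase, by 0.64 on the log2 scale. Of the 4 ABA hydroxylases, which break the hormone down, CYP707A1 and CYP707A4 fell (log2 −1.45 ± 0.16 and −1.13 ± 0.09) and CYP707A2 rose (log2 0.37 ± 0.12).

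The same lists were counted in the 7-day triple mutant, where 11.4% of all genes were higher and 11% lower with BL. Receptors gave 3 higher and 0 lower of 8, with PYL5 up by 0.09 on the log2 scale, PYL6 by 0.51 and PYR1 by 0.31. OST1 rose by 0.32, AFP3 fell by 0.82 (edgeR adjusted p = 8.73e-26), and BIN2 fell by 0.10. ABA targets gave 3 higher and 4 lower of 11. RD22 fell by 0.56 on the log2 scale, in contrast to its rise in cpd, and RD29A and RD20 fell by 0.35 and 0.46. CYP707A1 rose by 0.53 and CYP707A3 by 0.72, and CYP707A2 fell by 0.97. In 24-day cpd, of all these lists, PYL5 (log2 −1.02 ± 0.09), PYL7 (−0.67 ± 0.17), AFP3 (−1.13 ± 0.13), RD26 (−1.32 ± 0.23) and the ABI5-related factor EEL (−0.44 ± 0.11) fell and none rose. These were 2 of 9 tested receptors, 1 of 6 transcription factors, 1 of 6 ABI5 regulators and 1 of 10 targets. Of all genes tested in 24-day cpd, 5.18% fell and 4.54% rose.

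**Figure D4:**
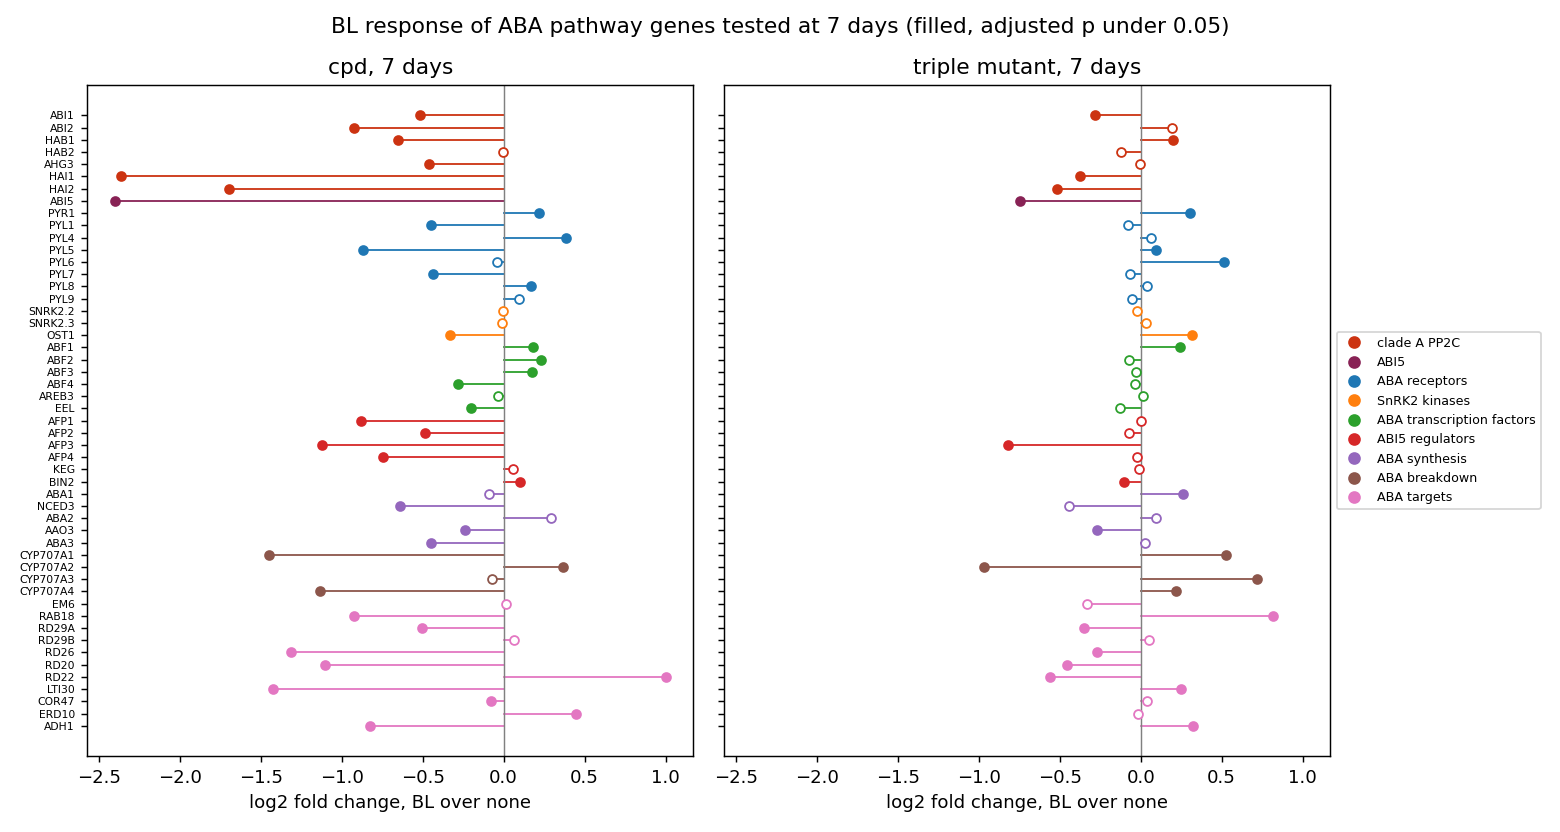
Lollipops give the log2 fold change of BL over no BL at 7 days in cpd (left) and in the triple mutant (right) for the ABA pathway genes that were tested, coloured by role, filled at an adjusted p under 0.05. The members except HAB2 (−0.0043), the ABI5 regulators AFP1, AFP3 and AFP4, and several targets lie to the left in cpd (AFP3 −1.12, RD26 −1.31). In the triple mutant AFP3 lies at −0.82 and ABI5 at −0.74.

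Members with similar profiles were found by Pearson's r over the 8 group means of log2 CPM, each centred on the mean of its age, which is a description across groups that share libraries. ABI5 was most like HAI2 (r = 0.986) and HAI1 (r = 0.976) among the members, HAI1 and HAI2 gave 0.939, and AHG3 and HAI2 gave 0.932. HAB2 had its highest r at 0.231 for ABI1 and its lowest at −0.559 for ABI2. It passed in no response to BL, and within each age its groups each overlapped the next. Its r values therefore rest on small differences. Among 6953 named genes with a mean of at least 5 CPM, ABI5 was most like SOB5 (r = 0.992), MYB32 (0.992) and CYP81G1 (0.991). HAI1 was most like XLG3 (0.999), GSTU4 (0.995) and Tic20-IV (0.994). AHG3 was most like WRKY23 (0.993), CLPX (0.993) and ALIS1 (0.987), and ABI1 most like SHS1 (0.987), MPL1 (0.983) and TLP10 (0.982).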

How the data were processed

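Read counts per gene locus were used as the authors deposited them, whole numbers in 1 table with a column for each of the 24 libraries. Per the labels' protocols, RNA of seedlings was extracted with Trizol and made into libraries with an Illumina TruSeq kit. The submitters' processing notes name Trimmomatic 0.36, HISAT2 2.1.0, HTSeq 0.9.1 and the build TAIR10. Not given in the sources used here are what each tool did, its settings, the release of the annotation and whether strand was used. Reads of overlapping genes may therefore be shared.

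Group membership follows the labels. The genotype label writes the first allele of the triple mutant as brl1-701 and the design text as bri1-701, and the latter was followed. Nothing labels the 3 libraries of a group as separate plants, and a p-value therefore measures only how far these libraries spread, which may be technical. Counts were tested in R 4.3.3 with edgeR 4.0.16, using TMM factors, filterByExpr with a minimum count of 10, and a quasi-likelihood fit of cell means to the 12 libraries of each age. Age comparisons used all 24 libraries. The SE is the log2 change over the square root of the F statistic, and intervals (95%) are 1.96 SE to each side. Adjusted p-values are Benjamini-Hochberg over all genes tested. Differences are coded as BL over none, the triple mutant over cpd, and 24 over 7 days. The test was checked on simulated counts. Floors of 3 counts cover counting error only.

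Replicate numbers were checked for pairing from the correlation of deviations from group means. At 24 days every same-numbered pair within each of the 4 comparisons of 2 groups exceeded 0.1 (0.13 to 0.62). Over all pairs of groups 16 of 18 did (0.083 to 0.62), and 15 exceeded the values for other numbers. The same numbers were taken to mark pairs at that age. At 7 days 0 of 18 exceeded 0.1 (−0.042 to 0.041). The values reported come from the fit without the replicate block, as designed, so the SEs, intervals and p-values at 24 days leave the pairing out. The blocked value is given beside a result where it changes the call or moves a count of calls by over 1.5 times.

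The 9 members and the gene lists were chosen with earlier results of these data known. Named genes outside the members are up to 3 per list with the smallest adjusted p in a comparison, and the 3 most alike by r. Genes named beside this rule are list members at 0 or near the floor and the markers of senescing leaves. Exon lengths, overlaps and promoters come from the TAIR10.1 annotation, matched by locus for 31912 of the 32678 loci. Alternatives tried were DESeq2 1.42.0, median-of-ratios size factors, no filter on low counts, the replicate block, the spread of the other age, voom (limma 3.58.1) with a weight per age, replicate 3 left out of every group, and each library left out in turn.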

Additional observations from a re-analysis of the deposited data

Results flagged for a closer look

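Several members answered BL differently in the 2 genotypes or at the 2 ages, each by a direct test of the difference in edgeR with adjustment over all genes. At 7 days the log2 response in the triple mutant minus that in cpd was 1.99 for HAI1, 1.66 for ABI5, 1.18 for HAI2, 1.12 for ABI2 (adjusted p = 1.37e-07), 0.85 for HAB1 (adjusted p = 8.88e-23), 0.45 for AHG3 (adjusted p = 0.00154) and 0.24 for ABI1 (adjusted p = 3e-06). With the spread of the 24-day fit the last 2 of these no longer passed (adjusted p = 0.395 for AHG3 and 0.759 for ABI1). HAB1 is the member whose response passed in opposite directions in the 2 genotypes, and with that spread its rise in the triple mutant did not pass (adjusted p = 1). At 24 days the same difference passed for ABI5, at 1.24. The log2 response of cpd at 24 days minus that at 7 days was 1.38 for HAI1, 0.99 for ABI5, 0.51 for HAB1 and 0.40 for ABI1, and here age and batch cannot be told apart.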

How the results depend on the processing

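Of 1288 alternative values of single members, 1244 stayed on their side of the threshold, 33 no longer passed, 11 newly passed and 0 passed in the opposite direction. The sign differed in 34 of the 1244, all of them values that passed in neither fit. The count of members passed was 1 in place of 5 for BL in the 7-day triple mutant and 0 in place of 3 for the untreated mutants at 7 days when the spread of the 24-day fit was used. The share of all genes passed was then 0.631% in place of 22.4% for the former and 2.78% in place of 27.9% for the latter. With that spread AHG3 no longer fell with BL in 7-day cpd (adjusted p = 0.0655), and the other 6 members called there still passed. HAB1 no longer rose with BL in the 7-day triple mutant (log2 0.20, adjusted p = 1), and ABI5 was the 1 member still called there (0.041). Also at 7 days, the genotype difference in the BL response was no longer called for AHG3 (0.395) and ABI1 (0.759). The cause of the difference in spread was not tested. Without replicate 3 of every group the count was 1 in place of 2 for BL in 24-day cpd and 0 in place of 1 for the difference between genotypes at 24 days. Of all genes, 5.41% in place of 9.72% passed the first of these and 1.29% in place of 2.75% the second. Leaving out 1 library at a time gave 4 to 6 members for BL in the 7-day triple mutant, 6 to 8 for the BL-treated mutants at 7 days, 1 to 2 for BL in 24-day cpd, 1 to 3 for the BL-treated mutants at 24 days, 6 to 7 for age in cpd and 4 to 5 for the age difference of the BL response, and left the other counts as they were. In the same order, the share of all genes passed was 17.9% to 18.7%, 48.6% to 49.7% and 4.61% to 8.18%. For the last 3 it was 5.19% to 10.2%, 64.1% to 67.2% and 6.19% to 12.3%. Among all genes, the share passed in the untreated mutants at 24 days was 5.38% with DESeq2, 5.22% without replicate 3, and 0.0754% to 5.65% on leaving out single libraries. The replicate block at 24 days raised the calls of all genes from 1918 to 3050 for BL in cpd, from 206 to 1422 for the untreated mutants, from 2185 to 3654 for the BL-treated mutants and from 543 to 1205 for the genotype difference. Among members it changed the call of HAI2 in 3 comparisons, each given with its result, and no other call. With no filter on low counts HAI3 was tested, and it fell with age in the untreated triple mutant (log2 −2.54, adjusted p = 0.00202). Depth limits HAI3 throughout.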
